A study of Xenopus laevis with 12 samples.

Results

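Proteins bound for the cell surface, for secretion or for the membranes of the cell enter the endoplasmic reticulum through a channel, are folded there with the help of chaperones, and leave in coated vesicles for the Golgi apparatus. The genes described here encode that machinery: the signal recognition particle that brings ribosomes to the membrane, the Sec61 channel and the proteins around it, signal peptidase, the folding enzymes of the lumen, the COPII coat of outgoing vesicles, the p24 (tmed) and KDEL receptors, the COPI coat of returning vesicles, and a transcription factor of the unfolded protein response, the programme that raises many of these genes when unfolded protein builds up. In a frog embryo during gastrulation the pathway makes, among others, extracellular matrix, secreted signals and their antagonists, and the secreted products of the epidermis.

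Members were chosen by the letters of their annotated gene symbols, with 1 probe set per symbol, the one with the highest mean log2 value. Earlier results of these data were known when the choice was made. The choice gave 66 symbols of 7531 named on the array, covered by 86 probe sets, and these stand for 53 genes because the genome of Xenopus laevis arose by doubling and often holds 2 copies of a gene, marked L and S. One of them, ssrp1.S, matched by its letters alone: it encodes a subunit of the FACT histone chaperone and has no known place in the secretory pathway. Signals were at or above the median level of the array's probe sets, 8.41 on the log2 scale, in 62 of the 66.

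The tested embryos had received Nkx2-5 mRNA together with GFP mRNA, and the control embryos GFP mRNA alone, with 6 embryos in each group. Nkx2-5, a homeodomain protein that switches genes on and off, is best known from the forming heart. GFP is a fluorescent protein of jellyfish. All were Xenopus laevis injected when they had 8 cells and collected whole at stage 11.5, late in gastrulation, with 1 embryo on each expression array. The labels name neither the parents of the embryos nor the blastomeres injected, so each p-value reflects only how much these embryos varied. In a whole embryo fewer cells of a type and less RNA per cell cannot be told apart.

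The labels were checked against nkx2-5.S, which has 2 probe sets. Signals of the first were 122, 163 and 233 (lowest, median, highest) in Nkx2-5+GFP embryos and 57.4, 90.3 and 138 in GFP embryos (2-sided exact permutation p = 0.00866, log2 difference 0.77, limma adjusted p = 0.0431), and those of the second 115, 136 and 187 in Nkx2-5+GFP embryos and 64.1, 89.7 and 125 in GFP embryos (2-sided exact permutation p = 0.00433, log2 difference 0.52, limma adjusted p = 0.0731). The groups overlapped in both probe sets, and every signal lay below the median signal of the arrays. Whether these probe sets detect the injected mRNA or the embryos' own transcript was not tested, which limits this check. Over all probe sets, limma called 3.12% higher and 3.26% lower in Nkx2-5+GFP embryos at an adjusted p under 0.05. Among genes with 1 probe set per symbol these shares were 3.11% and 3.86%, and the Nkx2-5+GFP group lay wholly above the GFP group in 1.61%. An unadjusted limma p under 0.05 was common, at 26.9% of named genes, and 11.5% reached it with the Nkx2-5+GFP embryos higher. Median signals lay between 302 and 335 on the arrays of Nkx2-5+GFP embryos and between 315 and 346 on those of GFP embryos. The ratio of 3' to 5' control signals of beta-actin ran from 2.68 to 3.33 in Nkx2-5+GFP embryos and from 2.81 to 4.27 in GFP embryos, and that of gapdh from 18.6 to 33.5 in Nkx2-5+GFP embryos and from 23.0 to 47.3 in GFP embryos. The part of RNA quality in the results was not tested.

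Several transcripts for entry into the endoplasmic reticulum and for folding inside it were higher in embryos given Nkx2-5 mRNA. Of the 66 members, 6 rose, 1 fell and 59 did not pass. The 6 that rose were hspa5.L and pdia4.L, which encode a chaperone and a disulfide isomerase of the lumen, spcs1.L of signal peptidase, and sec61a1.S, sec61b.L and ssr3.L of the channel. The member that fell was srp9.L of the signal recognition particle. The share that rose was 9.09%, beside the 3.11% of all named genes, and the share that fell was 1.52%, beside 3.86%. Among named genes at or above the array's median level, where most members lie, 3.43% rose and 5.84% fell. In 2 of the 66, spcs1.L and sec61a1.S, every Nkx2-5+GFP embryo lay above every GFP embryo, beside the 1.61% of all named genes. Without Nkx2-5+GFP embryo 1, and likewise without GFP embryo 3, limma called 3 members higher, hspa5.L, pdia4.L and spcs1.L, and 0 lower. Calls dropped over the whole array in these fits. Of 15491 probe sets, 179 and 209 were called higher, in place of 483, and 106 and 121 lower, in place of 505. With quantile normalization 8 rose and 0 fell, and with scaling to each array's median 6 rose and 0 fell.

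Most members leaned the same way by small amounts. The log2 difference, Nkx2-5+GFP minus GFP, was above 0 in 56 of 66 members, or 84.8%, with a median of 0.14, while it was above 0 in 47.1% of all named genes, with a median of -0.02. Among named genes at or above the array's median level 45.9% were above 0, with a median of -0.02. Differences ran from -0.31 for srp9.L to 0.81 for hspa5.L. Of 20 further probe sets of these symbols, 17 were above 0 and 3 below. Most of the members above 0 did not pass the test, and these counts describe the members and carry no test.

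**Figure D1:**
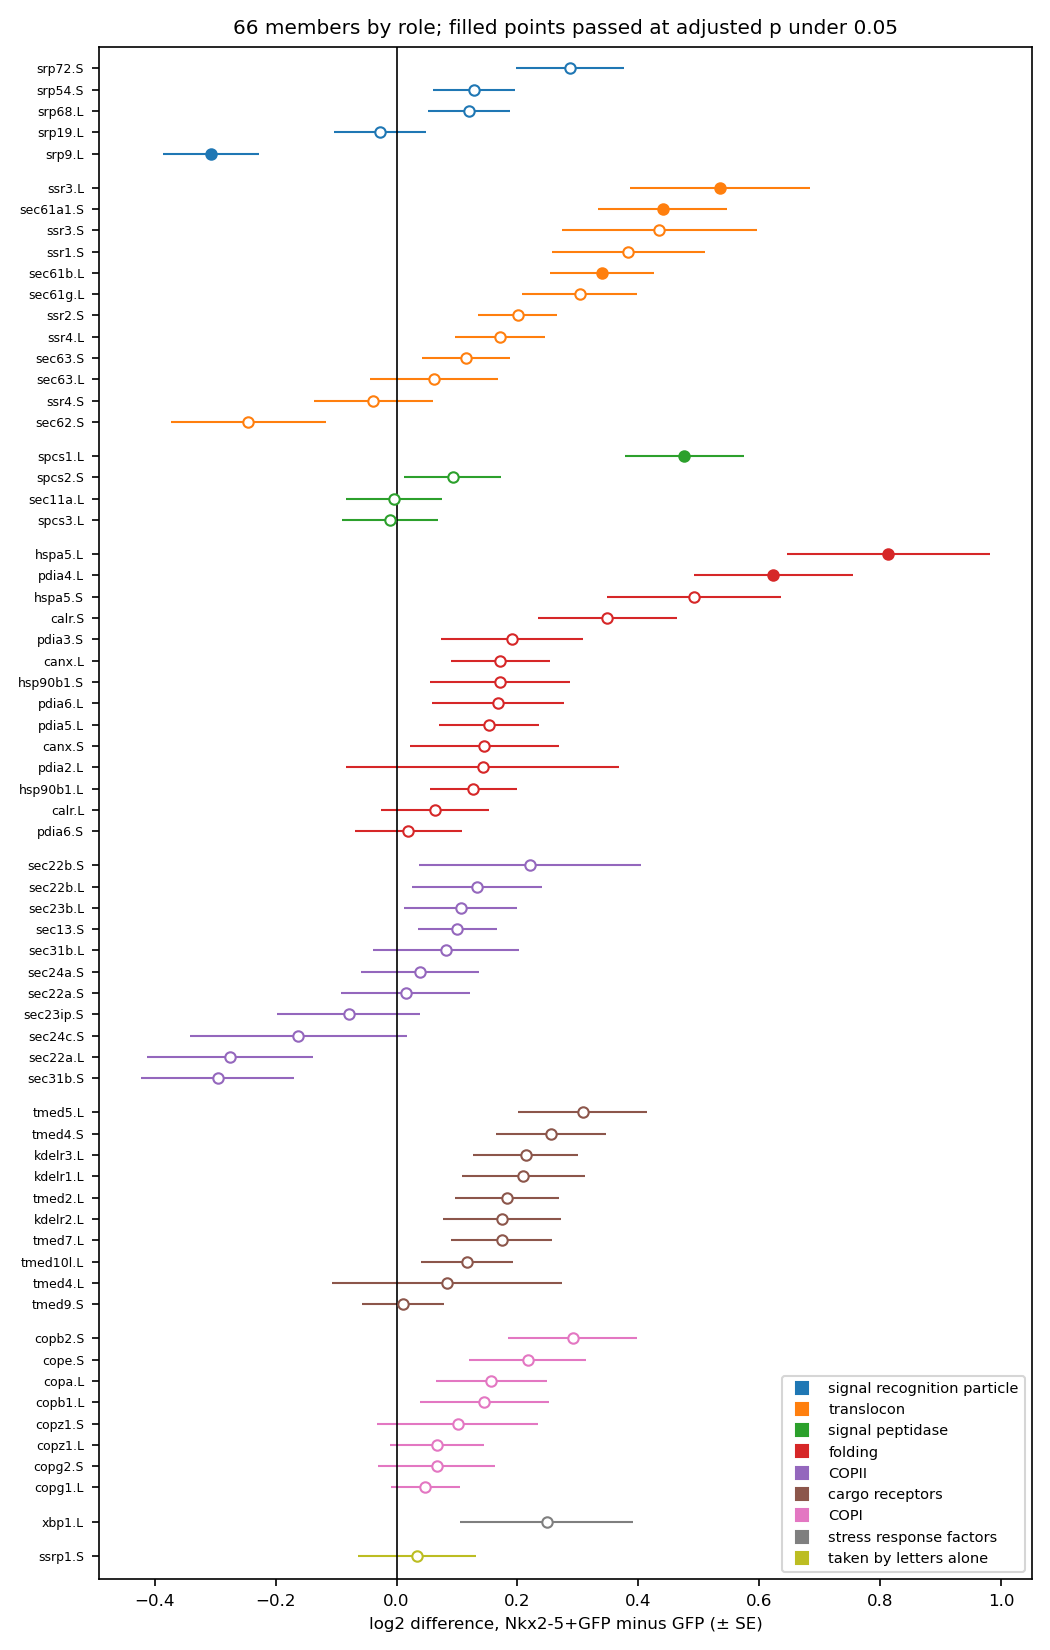
Each point is the log2 difference of 1 member, Nkx2-5+GFP minus GFP, with the moderated standard error of limma as the bar, in rows grouped and coloured by role. Filled points mark the 7 members that passed, of which 6 lie to the right of 0 and srp9.L to the left.

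The largest change was in hspa5.L, which encodes BiP, the Hsp70 chaperone of the lumen and the best known target of the unfolded protein response. Its signal was lowest at 2998, had a median of 3569 and was highest at 5097 in Nkx2-5+GFP embryos, against 1372, 2091 and 3046 in GFP embryos. Of the Nkx2-5+GFP embryos 5 of 6 lay above the highest GFP embryo, and the lowest Nkx2-5+GFP embryo lay just under that GFP embryo. The log2 difference was 0.81 (SE 0.17, limma adjusted p = 0.0146), a 1.76-fold rise. The S copy, hspa5.S, had signals of 1555, 1761 and 2080 (lowest, median, highest) in Nkx2-5+GFP embryos and of 852, 1293 and 1771 in GFP embryos. The difference, 0.49 on the log2 scale with an SE of 0.14, did not pass (limma adjusted p = 0.0538). It passed in 6 of 21 alternative settings. A probe set annotated to both copies, and therefore not counted as a member, had signals of 3748, 4635 and 5356 in Nkx2-5+GFP embryos and of 2439, 3359 and 4261 in GFP embryos and rose by 0.48 (SE 0.12, limma adjusted p = 0.0303).

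The second rise among folding genes was in pdia4.L, a protein disulfide isomerase that makes and rearranges disulfide bonds in new proteins. Signals were 1127, 1453 and 1555 (lowest, median, highest) in Nkx2-5+GFP embryos and 653, 882 and 1210 in GFP embryos. Again 5 of 6 Nkx2-5+GFP embryos lay above every GFP embryo. The log2 difference was 0.62 (SE 0.13, limma adjusted p = 0.0163). Both hspa5.L and pdia4.L passed in all 21 alternative settings of the fit, leaving out each embryo in turn among them.

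All 14 folding members were above 0, with a median log2 difference of 0.17, and the other 12 did not pass. Over all named genes 47.1% were above 0 and 3.11% rose. calr.S, a copy of calreticulin, which binds calcium and new glycoproteins, had signals of 4811, 5396 and 6670 in Nkx2-5+GFP embryos and of 3576, 4285 and 5851 in GFP embryos (lowest, median, highest), and its difference was 0.35 (SE 0.11, limma adjusted p = 0.0789). It passed without GFP embryo 5 (limma adjusted p = 0.0168). The L copy differed by 0.06 (limma adjusted p = 0.721). Calnexin, the membrane-bound partner of calreticulin, differed by 0.17 for canx.L (limma adjusted p = 0.208) and by 0.15 for canx.S (limma adjusted p = 0.515). The other 2 probe sets of canx.L differed by 0.29 (limma adjusted p = 0.0539) and by 0.17 (limma adjusted p = 0.137). The Hsp90 chaperone of the lumen, hsp90b1, which like BiP carries a retrieval signal, differed by 0.13 for the L copy (limma adjusted p = 0.300) and by 0.17 for the S copy (limma adjusted p = 0.399), each well under the value of hspa5.L. The remaining disulfide isomerases pdia2.L, pdia3.S, pdia5.L, pdia6.L and pdia6.S differed by 0.02 to 0.19. The probe set of pdia2.L was dim, with a mean signal of 14.8 in Nkx2-5+GFP embryos and 10.6 in GFP embryos, so that its difference cannot be read.

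**Figure D2:**
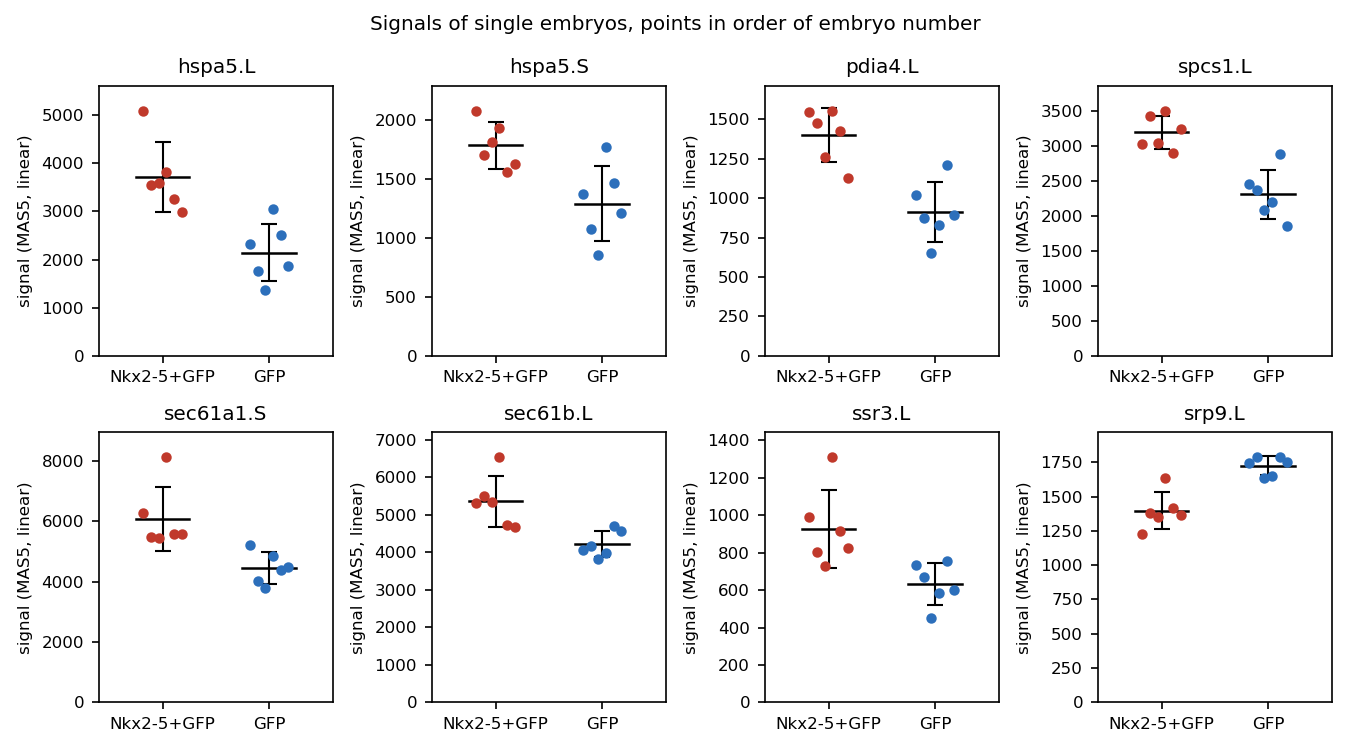
Each panel plots the linear MAS5 signal of 1 gene in the 6 Nkx2-5+GFP embryos at the left and the 6 GFP embryos at the right, with the mean and SD in black. The groups do not overlap for spcs1.L and sec61a1.S, and srp9.L is the panel in which the Nkx2-5+GFP embryos lie lower.

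Among the 12 members at the channel, 3 rose, 0 fell and 9 did not pass, with a median log2 difference of 0.25. Over all named genes 3.11% rose and 3.86% fell. An unadjusted limma p under 0.05 was reached by 8 of the 12, all of them above 0, where 11.5% of named genes reached it in that direction. sec61a1.S encodes the subunit that forms the pore. Its signals were 5442, 5586 and 8136 (lowest, median, highest) in Nkx2-5+GFP embryos and 3782, 4440 and 5220 in GFP embryos, and the groups did not overlap. The log2 difference was 0.44 (SE 0.11, limma adjusted p = 0.0275). The small subunit gene sec61b.L had 4684, 5329 and 6535 in Nkx2-5+GFP embryos and 3808, 4120 and 4692 in GFP embryos, and rose by 0.34 (SE 0.09, limma adjusted p = 0.0333). For sec61g.L, the other small subunit, signals were 4800, 5191 and 6167 in Nkx2-5+GFP embryos and 3568, 4303 and 5111 in GFP embryos. The difference of 0.30 did not pass (limma adjusted p = 0.0693), and a further probe set of sec61g.L differed by 0.07 (limma adjusted p = 0.646).

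The ssr genes encode the translocon-associated protein complex, which sits beside the channel and helps some proteins through it. ssr3.L had signals of 730, 869 and 1310 in Nkx2-5+GFP embryos and of 450, 635 and 755 in GFP embryos (lowest, median, highest), with 5 of 6 Nkx2-5+GFP embryos above every GFP embryo. The log2 difference was 0.54 (SE 0.15, limma adjusted p = 0.0455). Its S copy differed by 0.43 (limma adjusted p = 0.113), ssr1.S by 0.38 (limma adjusted p = 0.0791) and ssr2.S by 0.20 (limma adjusted p = 0.0768). ssr4.L differed by 0.17 and ssr4.S by -0.04. The other 2 probe sets of ssr4.S differed by 0.50 (limma adjusted p = 0.111) and by 0.11 (limma adjusted p = 0.413). Sec62 and Sec63 take part in the entry of proteins after their synthesis, and neither passed: sec62.S differed by -0.25 (limma adjusted p = 0.261), sec63.S by 0.12 and sec63.L by 0.06.

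The calls at the channel depended on single embryos, as did calls over all probe sets, which numbered 285 to 1485 in place of 988. With 1 embryo left out, the log2 difference was 0.35 to 0.49 for sec61a1.S and 0.28 to 0.38 for sec61b.L. For ssr3.L it was 0.43 to 0.60. sec61a1.S did not pass without Nkx2-5+GFP embryo 1 or GFP embryo 2, 3 or 6, with limma adjusted p of 0.0538 to 0.0669. sec61b.L did not pass without Nkx2-5+GFP embryo 1, 2, 3 or 4 or GFP embryo 1, 2, 3 or 4 (limma adjusted p of 0.0516 to 0.0819), and ssr3.L without Nkx2-5+GFP embryo 1, 2, 4, 5 or 6 or GFP embryo 2, 3, 4 or 6 (limma adjusted p of 0.0506 to 0.106). Without limma's intensity trend, which lets the expected variance follow the signal, none of the 3 passed (limma adjusted p of 0.0675 to 0.0802), and ssr3.L also missed with array weights (limma adjusted p = 0.0564).

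Signal peptidase cuts the signal sequence from proteins as they enter. Of its 4 measured members, spcs1.L rose and the other 3 did not pass, beside 3.11% of all named genes that rose. With so few members the count says little about the complex. Signals of spcs1.L were 2901, 3142 and 3504 (lowest, median, highest) in Nkx2-5+GFP embryos and 1851, 2285 and 2888 in GFP embryos. Every Nkx2-5+GFP embryo lay above every GFP embryo, and the log2 difference was 0.48 (SE 0.10, limma adjusted p = 0.0146), which passed in all 21 alternatives. The catalytic subunit gene sec11a.L differed by -0.00 (95% interval of limma -0.17 to 0.17), spcs2.S by 0.09 (-0.08 to 0.26) and spcs3.L by -0.01 (-0.18 to 0.16). A second probe set of spcs2.S differed by 0.21 (95% interval of limma -0.25 to 0.68, limma adjusted p = 0.597). A subunit of this complex thus rose, while a change of the others was not shown.

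The signal recognition particle had 5 measured members: 1 fell, 0 rose and the other 4 missed the threshold. Beside this, 3.86% of all named genes fell and 3.11% rose, and 5 members are too few to compare with these shares. srp9.L, a small protein of the particle known in mammals for slowing the ribosome until it reaches the membrane, had signals of 1226, 1374 and 1637 in Nkx2-5+GFP embryos and of 1634, 1747 and 1787 in GFP embryos (lowest, median, highest). The highest Nkx2-5+GFP embryo lay just above the lowest GFP embryo. The difference for srp9.L was -0.31 (SE 0.08, limma adjusted p = 0.0364), the only fall among the members. This call was lost in 13 of 21 alternatives, namely without Nkx2-5+GFP embryo 1, 2, 3 or 6, without GFP embryo 1, 2, 3, 4 or 6, and in 4 other settings (limma adjusted p of 0.0564 to 0.0966). srp72.S, which with Srp68 forms the large protein pair of the particle, differed by 0.29 (limma adjusted p = 0.0641), srp68.L by 0.12 (limma adjusted p = 0.300) and srp54.S, the GTPase that binds the signal sequence, by 0.13 (limma adjusted p = 0.267). Further probe sets of srp54.S differed by 0.12 and -0.01 (limma adjusted p = 0.485 and 0.963), and that of srp68.L by 0.21 (limma adjusted p = 0.207). The brightest probe set of srp19.L differed by -0.03 (limma adjusted p = 0.868). A second probe set of srp19.L, with signals of 882, 1064 and 1465 in Nkx2-5+GFP embryos and of 522, 745 and 894 in GFP embryos, rose by 0.56 (SE 0.14, limma adjusted p = 0.0316), so the probe sets of this gene disagree.

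No measured member of vesicle transport passed the test. The COPII coat carries cargo out of the endoplasmic reticulum. The 11 measured members grouped with it include the sec22 genes and sec23ip.S, which are not subunits of the coat. Of the 11, 0 rose and 0 fell by limma, beside 3.11% and 3.86% of named genes. An unadjusted limma p under 0.05 was reached by 1, beside the 26.9% of named genes. The median log2 difference of the members grouped here was 0.04, with 7 of 11 above 0, beside 47.1% of named genes. sec13.S, a subunit of the outer coat, had signals of 6778, 7459 and 7946 in Nkx2-5+GFP embryos and of 6328, 6766 and 7659 in GFP embryos (lowest, median, highest), a log2 difference of 0.10 (limma adjusted p = 0.378). The other outer coat gene, sec31b, differed by -0.30 for the S copy (limma adjusted p = 0.164) and by 0.08 for the L copy. sec22a.L, of the Sec22 family, differed by -0.28 (limma adjusted p = 0.234), sec22a.S by 0.02, and sec22b.L and sec22b.S by 0.13 and 0.22. Inner coat genes sec23b.L, sec24a.S and sec24c.S differed by 0.11, 0.04 and -0.16, and sec23ip.S, whose product binds Sec23, by -0.08.

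Cargo receptors had all 10 members above 0, with a median log2 difference of 0.18, where 47.1% of all named genes were above 0. By limma 0 of the 10 rose and 0 fell, beside 3.11% and 3.86% of named genes. An unadjusted limma p under 0.05 was reached by 3 of the 10, all of them above 0. Among named genes 11.5% reached it in that direction and 26.9% in either. The tmed genes encode p24 proteins, which cycle between the endoplasmic reticulum and the Golgi apparatus. tmed5.L had signals of 3397, 4118 and 4422 in Nkx2-5+GFP embryos and of 2483, 3521 and 3799 in GFP embryos, a log2 difference of 0.31 (limma adjusted p = 0.0917), and tmed4.S differed by 0.26 (limma adjusted p = 0.103). tmed7.L differed by 0.17 (limma adjusted p = 0.220), tmed10l.L by 0.12, tmed4.L by 0.08 and tmed9.S by 0.01. The brightest of 5 probe sets of tmed2.L differed by 0.18 (limma adjusted p = 0.207). Another, with signals of 1503, 1693 and 2222 in Nkx2-5+GFP embryos and of 1028, 1275 and 1501 in GFP embryos, did not overlap between groups and rose by 0.50 (SE 0.12, limma adjusted p = 0.0255). The remaining 3 lay between 0.17 and 0.34 and did not pass. The KDEL receptors return escaped lumenal proteins, BiP among them, from the Golgi apparatus, and kdelr1.L, kdelr2.L and kdelr3.L differed by 0.21, 0.17 and 0.21, with limma adjusted p of 0.219, 0.298 and 0.144. A second, dimmer probe set of kdelr2.L differed by -0.04 (limma adjusted p = 0.852).

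The COPI coat, which carries proteins back to the endoplasmic reticulum, had 8 measured members, all above 0, with a median log2 difference of 0.12. Of all named genes 47.1% were above 0. By limma 0 of the 8 rose and 0 fell, beside 3.11% and 3.86% of named genes. An unadjusted limma p under 0.05 was reached by 2, each above 0. Beside this, 11.5% of named genes reached it in that direction and 26.9% in either. The largest difference was that of copb2.S, at signals of 6112, 7268 and 7970 in Nkx2-5+GFP embryos and of 4414, 6134 and 6949 in GFP embryos (lowest, median, highest), 0.29 on the log2 scale (limma adjusted p = 0.109). cope.S differed by 0.22 (limma adjusted p = 0.183), and copa.L, copb1.L, copg1.L, copg2.S, copz1.L and copz1.S by 0.05 to 0.16.

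Of the stress response factors, only xbp1.L was measured as a member. Xbp1 is the transcription factor made when the sensor Ire1 splices its mRNA. xbp1.L signals were 6777, 9439 and 11294 in Nkx2-5+GFP embryos and 6166, 7541 and 9693 in GFP embryos, and 3 of 6 Nkx2-5+GFP embryos lay above every GFP embryo. The log2 difference of 0.25 did not pass (SE 0.14, limma adjusted p = 0.311), and the array signal does not separate the spliced from the unspliced form. Atf4, a factor of the same response, was covered by 2 probe sets annotated to several copies, which differed by 0.23 and 0.05 and did not pass (limma adjusted p = 0.360 and 0.868). No probe set named for ddit3 was used here. ssrp1.S differed by 0.03.

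Each embryo was set against the mean of all 12 for every member. The median deviation of the members was above 0 in all 6 Nkx2-5+GFP embryos, at 0.02 to 0.15 on the log2 scale, and below 0 in all 6 GFP embryos, at -0.10 to -0.01. For all named genes it lay between -0.03 and 0.02 in Nkx2-5+GFP embryos and between -0.00 and 0.04 in GFP embryos. Between 39 and 52 members were above their own mean in an Nkx2-5+GFP embryo, and between 20 and 30 in a GFP embryo. Nkx2-5+GFP embryo 4 had the highest deviation over all members, at 0.15, and also the highest at the channel, at 0.19, but the lowest of its group over the folding genes, at 0.04. GFP embryo 3 was the lowest at the channel and in folding, at -0.32 and -0.23. The same embryo had the highest 3' to 5' ratio of gapdh among the 12, at 47.3. Its beta-actin ratio, 3.40, lay inside the range of the GFP embryos. GFP embryo 6 was nearly as low in folding, at -0.22, with a gapdh ratio of 25.9 and a beta-actin ratio of 2.81. The next highest gapdh ratios, 33.5 and 33.1, were those of Nkx2-5+GFP embryos 3 and 5, whose folding values were 0.14 and 0.09. Whether RNA quality has a part in the low values was not tested. GFP embryo 5 lay nearest to the Nkx2-5+GFP embryos over all members, at -0.01. Members grouped with the COPII coat were mixed, at -0.18 to 0.10 in Nkx2-5+GFP embryos and -0.16 to 0.09 in GFP embryos. These summaries carry no test.

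**Figure D3:**
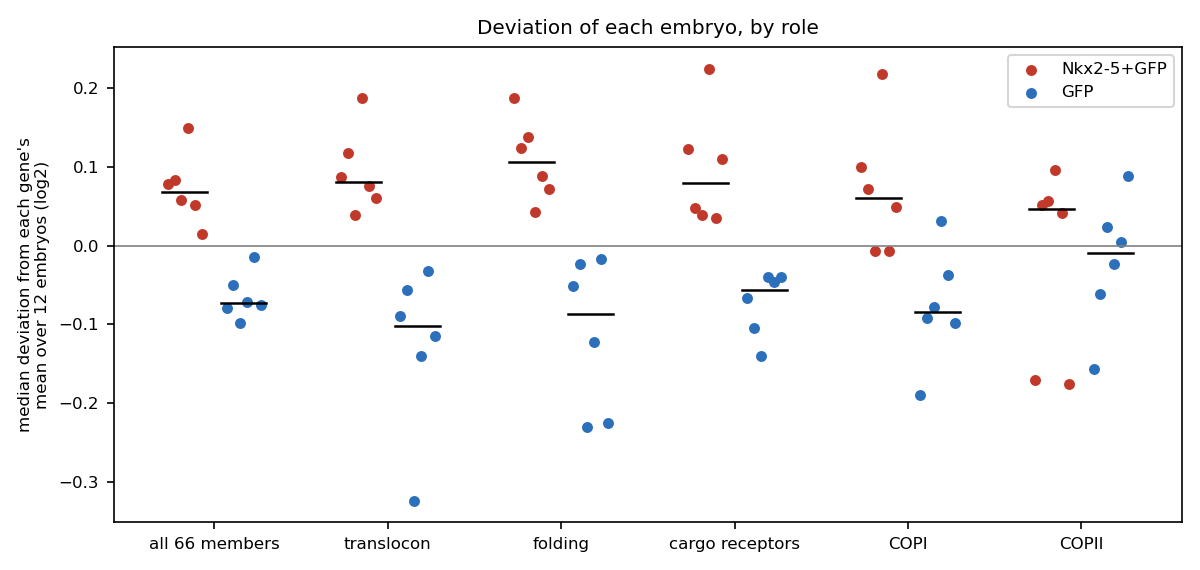
Points are single embryos, red for Nkx2-5+GFP and blue for GFP, and the vertical axis is the median log2 deviation of a group of members from their means over the 12 embryos, with black lines at the median of each group of embryos. The embryo groups stand apart over all 66 members, the channel, folding and cargo receptors, and overlap for COPI and COPII.

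Spread between embryos was low for most members. The median SD of the log2 values was 0.16 in Nkx2-5+GFP embryos and 0.15 in GFP embryos, against 0.19 and 0.18 for all named genes at or above the array's median level. The 2 hspa5 copies varied most of all members among GFP embryos, with an SD of 0.41 for hspa5.L and of 0.36 for hspa5.S. In Nkx2-5+GFP embryos their SDs were 0.26 and 0.16.

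For 13 genes both the L and the S copy were members, and in 10 of these both copies were above 0. That count was not taken over all pairs of the array. Whether copies differ in their response was tested by fitting limma to the L minus S difference of 1017 pairs on the array, of which 1.08% were called. Of the 13 member pairs, 0 were called, with 3 at an unadjusted p under 0.05, which 16.7% of all pairs reached. Levels of different probe sets cannot be compared, so only the change of the L minus S difference between embryo groups is given. Its smallest p was that of hspa5, with a change of 0.32 on the log2 scale (95% interval 0.13 to 0.51, limma adjusted p = 0.0992). The change was 0.38 for sec31b (limma adjusted p = 0.215), -0.29 for sec22a (limma adjusted p = 0.249), -0.29 for calr (limma adjusted p = 0.338), 0.21 for ssr4 (limma adjusted p = 0.461) and 0.15 for pdia6 (limma adjusted p = 0.566). Both probe sets of ssr4 used here end in x_at and can detect more than 1 transcript. For calr the interval ran from -0.60 to 0.03, so a difference between its copies was not shown.

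**Figure D4:**
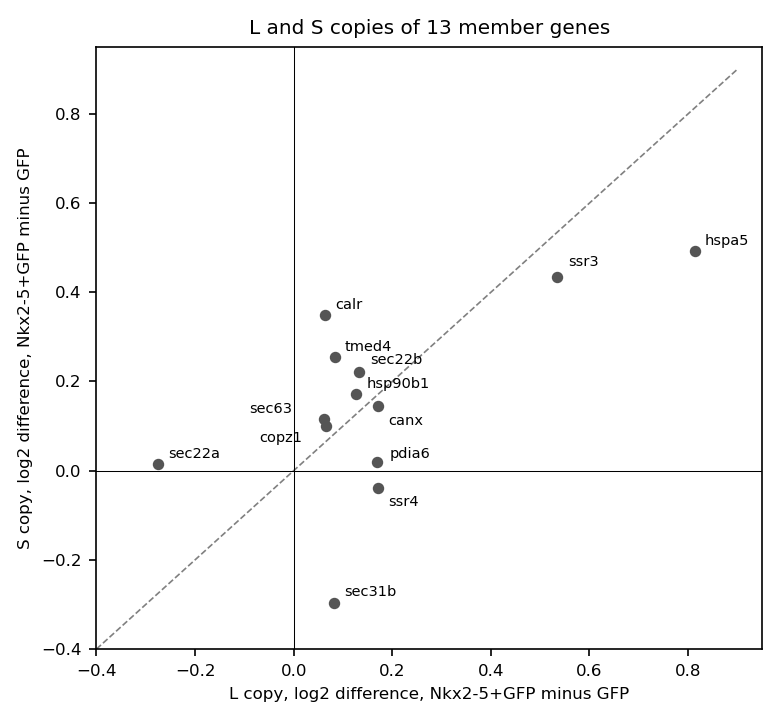
Points are the 13 genes with both copies among the members, with the log2 difference of the L copy, Nkx2-5+GFP minus GFP, on the horizontal axis and that of the S copy on the vertical axis. The dashed line marks equal differences, and hspa5, at 0.81 and 0.49, and ssr3, at 0.54 and 0.43, lie farthest from the origin.

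A wider list of genes of the same pathway, outside the members, held 129 names, of which 85 were measured in 106 copies. Among the 106 copies 7 rose, 1 fell and 98 missed the threshold, with a median log2 difference of 0.08 and 68 above 0. Those that rose made up 6.60%, beside 3.11% of named genes, and those that fell 0.94%, beside 3.86%. The 68 above 0 made up 64.2%, beside 47.1% of named genes.

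Among 23 measured copies of folding helpers 3 rose and 19 were above 0. agr2.S, which encodes a disulfide isomerase relative known in Xenopus from the cement gland, had signals of 125, 324 and 415 in Nkx2-5+GFP embryos and of 70.2, 90.1 and 228 in GFP embryos (lowest, median, highest), and rose by 1.25 (SE 0.30, limma adjusted p = 0.0267). fkbp9.L, a prolyl isomerase of the lumen, rose by 1.16 (limma adjusted p = 0.0292) and ppib.S, cyclophilin B, by 0.26 (limma adjusted p = 0.0372). The other copies did not pass: fkbp9.S differed by -0.39 (limma adjusted p = 0.271), agr2.L by 0.999 (limma adjusted p = 0.0725) and ppib.L by 0.21 (limma adjusted p = 0.143). At the membrane, tram1.S, which encodes a protein beside the channel, had signals of 970, 1171 and 1209 in Nkx2-5+GFP embryos and of 814, 898 and 952 in GFP embryos, did not overlap between groups and rose by 0.35 (SE 0.08, limma adjusted p = 0.0279). Of the 106 copies, tram1.S was the only 1 whose Nkx2-5+GFP group lay wholly above the GFP group, beside 1.61% of named genes. emc4.L, of a complex that inserts membrane proteins, rose by 0.38 (limma adjusted p = 0.0469), and ost4.L, a small subunit of the enzyme that attaches sugar chains, by 0.57 (limma adjusted p = 0.0261). Of 17 copies for receptors and insertion, tram1.S and emc4.L among them, 2 rose, or 11.8%. Of 11 copies for the enzyme that attaches sugar chains 1 rose, or 9.09%. Beside 3.11% of all named genes, such short lists say little. Of 37 copies in transport 1 rose, or 2.70%, near the 3.11% of all named genes. It was gorasp2.S, which encodes a stacking protein of the Golgi apparatus, by 0.71 (SE 0.16, limma adjusted p = 0.0226), while gorasp2.L differed by 0.31 (limma adjusted p = 0.0649). Stress sensors and response genes had 4 measured copies, of which 0 rose and 0 fell, beside 3.11% and 3.86% of named genes. Their median log2 difference was -0.01, with 2 of 4 above 0. These are too few to compare with those shares, and whether the unfolded protein response was raised was not tested.

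Quality control and degradation was the list whose median lay lowest, at -0.09 over 14 copies, of which 0 rose and 1 fell. That fall made up 7.14%, beside the 3.86% of all named genes that fell, and 3.11% of named genes rose. With 14 copies, 1 call says little beside these shares. The list was mixed, with 6 of 14 above 0. Among those that did not pass, herpud1.L differed by 0.47 (limma adjusted p = 0.0582) and selenos.L by 0.35 (limma adjusted p = 0.0896). On the other side, ube2j2.L differed by -0.44 (limma adjusted p = 0.0738) and nploc4.S by -0.40 (limma adjusted p = 0.107). sel1l.L, which encodes the partner of the ubiquitin ligase that disposes of misfolded proteins, had signals of 1106, 1374 and 1776 in Nkx2-5+GFP embryos and of 1570, 1916 and 2458 in GFP embryos, a log2 difference of -0.46, the only fall in the list (SE 0.12, limma adjusted p = 0.0371). Of the 8 calls in the wider list, that of gorasp2.S was kept in 20 of 21 alternatives and the others in 10 to 15. Without Nkx2-5+GFP embryo 1 limma called 0 of the 106, with 28 at an unadjusted p under 0.05, a share near the 21.9% of all named genes in that fit. In place of 8, the calls numbered 2, 7, 3, 11 and 3 when Nkx2-5+GFP embryo 2, 3, 4, 5 or 6 was left out. They numbered 5, 3, 1, 2, 14 and 3 when GFP embryo 1, 2, 3, 4, 5 or 6 was left out. Over all probe sets the calls numbered 285 to 1485 when 1 embryo was left out, in place of 988.

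Some markers of other tissues moved beside these genes. Over all named genes 3.11% rose and 3.86% fell. Of 12 measured copies of genes of the superficial epidermis and its secretory cells, a list that holds agr2 as well, 8 rose and 0 fell. This list shares foxa1 with the endoderm list. The summed signal of the 12 ran from 22669 to 33786 in Nkx2-5+GFP embryos and from 14977 to 18311 in GFP embryos. Bright probe sets weigh most in such sums. Signals of krt7.L alone ran from 9592 to 12753 in Nkx2-5+GFP embryos and from 6066 to 7999 in GFP embryos. Of 15 endoderm copies 1 rose and 5 fell, with sums of 31343 to 33936 in Nkx2-5+GFP embryos and of 35508 to 43997 in GFP embryos. The 5 falls were in both copies of cxcr4 and of mix1 and in gata5.S, and a2m.S rose. Among those that did not pass, the copies of sox17a, gata4 and gata6 differed by -0.11 to -0.04 on the log2 scale. There sox17b.1.S differed by -0.33, gata5.L by -0.25 and foxa1.S by 0.45. Muscle and paraxial mesoderm had 3 of 5 that rose, with sums of 2426 to 5028 in Nkx2-5+GFP embryos and of 1182 to 2908 in GFP embryos. Organizer and notochord genes, 10 measured, had 1 that rose and 0 that fell. Neural plate genes, 6 measured, and germ plasm genes, 5 measured, each had 1 that fell and 0 that rose. The part of a different mix of tissues in the results for the secretory genes was not tested.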

How the data were processed

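Whole single embryos were measured on 12 one-colour Affymetrix arrays, from 100 ng of total RNA amplified in 2 cycles, per the labels' protocols. The authors deposited 1 linear intensity (signal) per probe set and array, made with MAS5 per the submitters' processing notes; the sources used here give no version, scaling target or detection calls. Trimmed by 2% at both ends, the mean signal of each array was 1000.1. Of 15611 probe sets, 120 controls were left out and 15491 tested, with no filter. The number of arrays limits the precision.

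Signals were analysed as log2(signal + 16), so folds of dim probe sets are understated. limma 3.58.1 in R 4.3.3 (lmFit, eBayes with intensity trend, 10 residual degrees of freedom, 2-sided) compared Nkx2-5+GFP with GFP. Adjusted p is Benjamini-Hochberg over all probe sets, called under 0.05, and SE is limma's moderated standard error. The fit was also run on simulated independent draws with planted differences larger than those of the called members. It therefore cannot vouch for calls of that size. The exact permutation test used all 924 assignments of embryos (smallest p 0.00216). Figures were drawn with matplotlib 3.10.9.

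Names came from the array's annotation, updated with RefSeq gene numbers of Xenopus_laevis_v10.1: 9304 probe sets had 1 gene, 195 several and 5992 none, and names were taken only from the first. Probe sets ending in s_at or x_at, 5 among the members, can detect more than 1 transcript.

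The members and lists were chosen with earlier results of these data known. The genes described singly were all called members, every copy of hspa5, hsp90b1, calr, canx and xbp1, the 2 brightest members of each role that were not called, up to 10 called genes of the wider list and 6 homeolog pairs; the other members were named after their values were seen. Alternatives were pseudocounts of 1 and 64, leaving out dimmer probe sets, quantile or median scaling, no trend, robust estimation, array weights, a replicate block, leaving out each embryo, averaging probe sets, leaving out s_at and x_at probe sets, and leaving out ssrp1.S.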

Additional observations from a re-analysis of the deposited data

Results flagged for a closer look

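In 72 groups of 6 embryos, 2 for each of 36 genes named by rule, 8 held an embryo whose gap to its nearest neighbour took an unusually large share of the group's range on the log2 scale; chance flags about 1 in 20 groups. Nkx2-5+GFP embryo 4 stood low for both calnexin copies, at 7808 beside 9377 for canx.L (gap 0.701 of the range) and at 2813 beside 3583 for canx.S (0.653), and high for sec61a1.S, at 8136 beside 6268 (0.649). Nkx2-5+GFP embryo 6 stood low for hsp90b1.L, at 3264 beside 3492 (0.626), for gorasp2.S, at 397 beside 687 (0.702), and for tram1.S, at 970 beside 1147 (0.762). GFP embryo 6 stood high for hsp90b1.S, at 2060 beside 1576 (0.650), and GFP embryo 5 for ost4.L, at 3395 beside 2358 (0.719). The calls of sec61a1.S, gorasp2.S, tram1.S and ost4.L in the fit of all embryos include these values.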

How the results depend on the processing

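The count of members that rose, 6, was 10 without dimmer probe sets, which left 62 members to test, 3 without the intensity trend, 5 with the replicate block (sec61b.L missed, adjusted p = 0.0687), and 3 to 9 when 1 embryo was left out, with 3 without Nkx2-5+GFP embryo 1 and 3 without GFP embryo 3. The count that fell, 1, was 0 with quantile normalization, median scaling, no trend or the replicate block, and 0 to 1 when 1 embryo was left out. The median log2 difference of the members, 0.14, was 0.19 with median scaling and 0.13 to 0.15 when 1 embryo was left out. Over all probe sets, 988 were called, with 437 without the trend and 285 to 1485 when 1 embryo was left out. The wider list had 8 calls, with 2 without the trend and 0 to 14 when 1 embryo was left out. Of 1017 homeolog pairs 11 were called, with 19 at a pseudocount of 64, 7 with the replicate block and 4 to 16 when 1 embryo was left out. Same-numbered embryos deviated together with correlations of -0.15 to 0.13, and 3 of 6 matched their own number best. These values do not settle whether the numbers pair the embryos. The main fit did not pair them, and the replicate block did. No called member changed sign in any alternative. Dim signals such as pdia2.L limit what can be read.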
